A study of Homo sapiens with 12 samples.

Results

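The SR proteins, the kinases that phosphorylate them and the hnRNPs are the main families of proteins that set where exons are joined. The 39 genes described here, of 60675 listed in each deposited table, were chosen by name. They are 12 SR protein genes (SRSF1 to SRSF12), the 2 SR-like genes TRA2A and TRA2B, the 4 CDC-like kinases CLK1 to CLK4 and the 2 SR protein kinases SRPK1 and SRPK2, which make a first family of 20, and 16 HNRNP genes with PTBP1, PTBP2 and PTBP3, which make a second family of 19. Both families were compared in steady-state RNA and in RNA labelled before a chase. All 39 genes were listed in both tables and all were protein coding in GENCODE 44.

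SR proteins bind exonic enhancers through RNA recognition motifs and recruit the early spliceosome through a tail rich in arginine-serine repeats. SRPK kinases phosphorylate that tail in the cytoplasm and let the protein enter the nucleus, and CLK kinases phosphorylate it further inside the nucleus and release SR proteins from nuclear speckles. HnRNPs coat nascent transcripts and often hold back the exons that SR proteins promote, as PTBP1 does through pyrimidine-rich tracts. Many genes of both families control their own output through exons or retained introns whose inclusion sends the mRNA to nonsense-mediated decay or keeps it in the nucleus.

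A375, an established human melanoma line with an activated BRAF kinase, was compared with A375/211, its derivative that overexpresses MIR211, which encodes miR-211. Total RNA was sequenced from 2 libraries per line, labelled a and b (RNA-seq). For BRIC-seq, both lines carried 5-bromouridine (BrU) label from 24 h of feeding. Cells were taken 0 h, 1 h, 3 h and 6 h into the chase, with 1 library per line and time, so that RNA made before the chase was followed after immunoprecipitation of its label. How the overexpressing line was made, and whether it is a clone, is not given in the sources used here. With 1 line of each kind, an effect of miR-211 and any other difference between these lines cannot be told apart.

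RNA-seq libraries held 20.8 to 34.1 M counts and BRIC-seq libraries 2.67 to 7.28 M, the later times being counted more deeply. MIR211 itself had 0 and 0 counts in the A375 RNA-seq libraries and 36 and 18 in A375/211, and 0 in all 4 A375 BRIC-seq libraries against 9, 11, 2 and 3 in A375/211, in the order 0, 1, 3 and 6 h. Of 9 melanocyte lineage markers, 6 reached 1 CPM in RNA-seq (counts scaled to the library's TMM-adjusted total), with a summed level of 485 to 492 CPM in A375 and 384 to 425 in A375/211. Members of that sum moved in opposite directions: MITF, the 1 marker that passed, had 253 and 244 CPM against 38.8 and 49, while SOX10 had 163 and 135 against 206 and 232 and S100B 32.6 and 29 against 94.6 and 100. No keratinocyte marker of 5 reached 1 CPM, and the leukocyte genes PTPRC and CD3E and the endothelial genes PECAM1, CDH5 and CLDN5 had no RNA-seq count. CD68 (9.03 to 22.6 CPM) and KDR (3.34 to 9.09) were counted, the summed leukocyte level being 21.6 to 25.5 CPM in A375 and 9.83 to 17 in A375/211. Fibroblast genes moved in opposite directions. COL1A2 had 17.2 and 51 CPM in A375 against 0.236 and 0.518. LUM (4.28 and 5.53 against 12.3 and 11.9), PDGFRB (4.42 and 4.66 against 12.9 and 11.8) and DCN (0.147 and 0 against 1.27 and 1.29) were higher in A375/211. In BRIC-seq the summed level of 6 fibroblast markers was 2.33 to 14.7 CPM in A375 and 26.9 to 149 in A375/211, that of 5 leukocyte markers 3.24 to 21.3 and 18.6 to 153, and that of 5 endothelial markers 1.06 to 4.12 and 27.5 to 46.7, through LUM, CD68 with LYZ, and KDR respectively. Their part in the line differences was not tested. Over the chase the share of counts from mitochondrial rRNA was 8.5% at 0 h and 28.7% at 6 h in A375, and 8.26% and 28.5% in A375/211, and its part in the slopes was not tested.

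The microRNA that separates the lines is shown first, with the sites it could pair with in those members whose labelled RNA differed between the lines. Mature miR-211-5p (RefSeq, GRCh38.p14, chr15:31065095-31065116, minus strand) carries its seed, bases 2 to 8, in capitals, and the capitals in the other lines are the matching AAAGGGA on the transcript strand, in 25 bases of the 3′ UTR of the gene's MANE transcript (GENCODE 44, GRCh38).
miR-211-5p: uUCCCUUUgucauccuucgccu
SRSF8 site: tatacctttactagcAAAGGGAaaa
TRA2B first site: gtcgccagtttcatgAAAGGGAggc
TRA2B second site: ttactgcctcaaggcAAAGGGActt
HNRNPA1 site: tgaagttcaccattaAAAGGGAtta
The capitals of the SRSF8 site lie at chr11:95069418-95069424 (plus strand), those of TRA2B at chr3:185915488-185915494 and chr3:185915370-185915376 (minus strand), and those of HNRNPA1 at chr12:54285080-54285086 (plus strand). Of the sites shown, only that of SRSF8 is followed by an A, as in the strongest class of seed match. An A also follows the sites of SRSF1, SRSF11, HNRNPA2B1 and HNRNPUL1, none of which passed in the line difference of labelled RNA. HNRNPA1 was higher, not lower, in the overexpressing line. SRSF7, CLK2, CLK3 and HNRNPAB, which were lower there, have no such site.

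The sites were not peculiar to SRSF8, TRA2B and HNRNPA1. AAAGGGA was found 12 times in the 3′ UTRs of 10 of the 39 members, 5 in each family (SRSF1, SRSF8, SRSF11, TRA2B and SRPK2, then HNRNPA1, HNRNPA2B1, HNRNPA3, HNRNPR and HNRNPUL1). That is 25.6% of members against 19.6% of 13183 genes with a MANE 3′ UTR, and 1.39 against 1.23 sites per 10 kb. Members' 3′ UTRs were slightly longer, with a median of 1534 bases against 1353. In RNA-seq the median log2 difference, A375/211 minus A375, was -0.03 for the 10 members with a site and -0.04 for the 29 without. In BRIC-seq at matched times it was -0.12 and -0.28, so that the median was lower in the members without a site. A match is a description of the letters and not a bound site.

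Steady-state RNA of most members differed little between the lines. None of the 39 members passed in RNA-seq (edgeR's quasi-likelihood test, Benjamini-Hochberg adjusted p under 0.05 over all 19258 genes tested), where 0.379% of all genes passed (73 genes). Besides SRSF12, no member's log2 difference exceeded 0.36 in size, with standard errors of 0.16 to 0.38. The median size was 0.11 for the members and 0.24 for all genes, and the lines' libraries did not overlap in 9 of the 39 members, against 7895 of 19258 genes. A mean of 5 CPM was reached by 38 members and by 12298 of all genes, and neither contrast was matched for abundance. DESeq2 also called 0 members, while it called 346 genes higher and 334 lower, and 1 member had an unadjusted p under 0.05 in edgeR.

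That member was SRSF12, a little-studied SR protein with low expression in most tissues and the least abundant of the 39 here. It had 3.98 and 4.73 CPM in A375 and 1.24 and 2.07 in A375/211. Both A375 libraries lay above both A375/211 libraries, at a log2 difference of -1.40 (SE 0.36, adjusted p = 0.242 by edgeR). In BRIC-seq it was too scarce for the count filter, with 26, 16, 32 and 12 counts in A375 against 2, 4, 3 and 0 in A375/211. Summed over the 4 times, 86 counts against 9, it was 8.73-fold higher in A375 (exact 95% interval 4.39 to 19.7, counting error only). The lower level in A375/211 was thus seen in all 6 libraries of that line, in each assay on its own. The main fits did not call it. Without a count filter, SRSF12 was among the genes called lower in BRIC-seq at matched times.

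**Figure D1:**
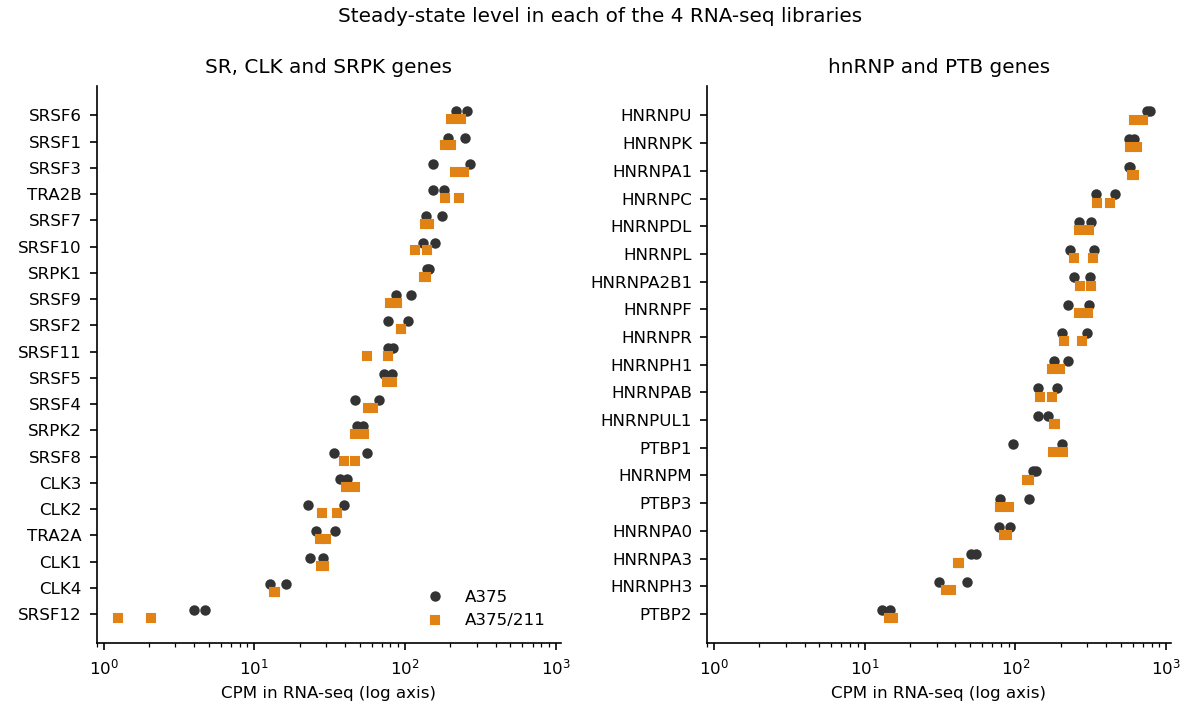
CPM in each of the 4 RNA-seq libraries (horizontal log axis) for the 20 SR, CLK and SRPK genes (left) and the 19 hnRNP and PTB genes (right), black circles for A375 and orange squares for A375/211. SRSF12 lies lowest and its lines lie farthest apart, at 3.98 and 4.73 CPM against 1.24 and 2.07.

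Among SR proteins, SRSF1, the founding member and a known oncoprotein, had 251 and 193 CPM in A375 and 201 and 184 in A375/211. SRSF3, which also shapes RNA export, had 154 and 268 CPM against 214 and 244, so that the libraries within a line differed more than the lines did. TRA2B, a splicing activator that binds GA-rich exons, stood at 154 and 182 CPM in A375 and 183 and 229 in A375/211 (log2 0.30, SE 0.20). SRSF11, which concentrates in nuclear speckles, stood at 82.6 and 77.6 against 56.2 and 77.4 CPM (log2 -0.26, SE 0.22). Neither difference passed the edgeR test (adjusted p = 0.709 and 0.775). Of the kinases, CLK1 stood at 28.4 and 23.4 CPM against 29.1 and 27.7 and CLK4 at 16.3 and 12.8 against 13.5 and 13.8.

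No hnRNP passed either. HNRNPA1, one of the most abundant RNA-binding proteins and an exon silencer, had 572 and 564 CPM in A375 and 616 and 593 in A375/211. PTBP1 had 96.5 and 203 CPM against 178 and 207, where the wide gap between both A375 libraries spanned that between the lines. The smallest p among hnRNPs belonged to HNRNPA3, a relative of HNRNPA2B1, with 55 and 50.6 CPM against 41.3 and 42 (log2 -0.34, SE 0.16, adjusted p = 0.544 by edgeR). Both libraries of A375/211 were lower for HNRNPA3. HNRNPUL1 was at 141 and 164 against 180 and 184 CPM (log2 0.26) and HNRNPU, a scaffold protein of chromatin and nuclear RNA, at 749 and 780 against 614 and 697 (log2 -0.22), without overlap of the lines in either gene.

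Compared per length of the MANE transcript, HNRNPK, a poly(C)-binding hnRNP, was highest, at 204 CPM per kb in A375 and 212 in A375/211. It was followed by HNRNPA1 (152 and 161), HNRNPL (131 and 133) and HNRNPC (127 and 122). Counts given to named pseudogenes, which share sequence with their gene, are left out here. For HNRNPA1 they summed to 527 and 534 CPM in A375 and 564 and 533 in A375/211, nearly the level of the gene itself. For HNRNPK they summed to 55.5 and 67.9, and 61.9 and 67.2. The order of HNRNPK and HNRNPA1 is therefore uncertain. SRSF9 led the first family at 85.2 and 72.8 CPM per kb, ahead of SRSF7 (66.6 and 59). SRSF6 came next in A375 (54.6 and 50.1) and SRSF3 in A375/211 (49.9 and 54.1). Kinases lay from 32.3 (SRPK1) down to 5.81 CPM per kb (CLK4) in A375, a range that also held SR genes such as SRSF4 (24.8) and SRSF8 (10.4). SRSF12 was the lowest of the first family at 1.21, and the neuronal paralog PTBP2 of the second at 4.19. Neighbours such as HNRNPL and HNRNPC, or CLK2 (14.4) and CLK1 (14), did not differ beyond the spread of their libraries, and the order of the 39 was nearly the same in both lines (Spearman 0.99 over 39 genes, which share their libraries).

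The families parted over the chase. The slope of labelled RNA, as log2 per hour against all labelled RNA after scaling, fell below 0 for most of the first family and rose above it for most of the second. Of 19 SR, CLK and SRPK genes tested, 11 fell, 0 rose and 8 did not pass, where 34.4% of all 13703 genes fell and 29.9% rose (edgeR, both lines together). Of 19 hnRNP and PTB genes, 15 rose, 3 fell and 1 did not pass. The median slope was -0.17 in the first family, 0.19 in the second and -0.04 over all genes. Above 0 lay 21 of the 38 tested members and 46.1% of all genes. Within the first family the 4 CLK kinases had a median of -0.25 and the 11 tested SRSF genes one of -0.10, with 5 of these 11 falling. A rise is a growing share of the scaled labelled RNA and not an absolute gain.

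Where 0 lies on this scale depends on what is held constant, while the gap of -0.36 between the family medians does not. With total counts in place of TMM scaling, all genes shifted by -0.16 per hour, 7 hnRNP and PTB genes rose (1875 of all 13703 genes) and the medians were -0.33 and 0.03. With glycolytic mRNAs held constant, all genes shifted by -0.45, the medians were -0.62 and -0.26, and 0 hnRNP and PTB genes rose while 18 fell. Among all 13703 genes, 14 then rose and 11791 fell. Each slope below is therefore a position relative to other labelled RNA in TMM scaling, and the slopes above 0 named below fall below 0 when glycolytic mRNAs are held constant, except that of PTBP1, which is then 0.03 and does not pass.

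**Figure D2:**
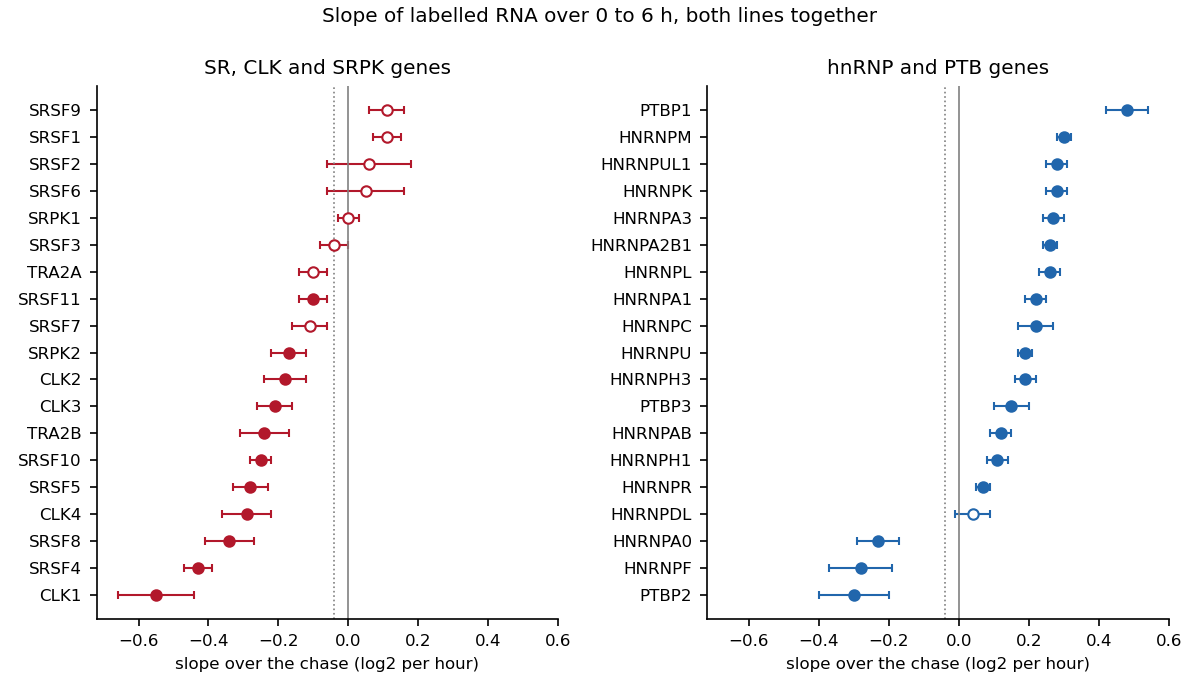
Slope over the chase in log2 per hour (horizontal axis) with its standard error (bars) for 19 SR, CLK and SRPK genes (left) and 19 hnRNP and PTB genes (right), both lines fitted together. Filled points passed the edgeR test, the solid line marks 0 and the dotted line the median of all genes (-0.04); 11 genes on the left lie filled below 0 and 15 on the right filled above it.

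All 4 CLK kinases fell. CLK1, the best studied of them and a gene known to retain introns in its nuclear transcripts, fell most of the 38 members, by 0.55 log2 per hour (SE 0.11, adjusted p = 0.00197 by edgeR). Its level was 30.9, 19.7, 11.7 and 6.83 CPM at 0, 1, 3 and 6 h in A375 and 27.7, 10.5, 3.1 and 0.49 in A375/211. Both lines started alike, and the ratio between them grew with every later time. CLK4, the closest paralog of CLK1, had 25.6, 29.2, 14.2 and 10.4 CPM in A375 and 25.3, 11.3, 4.65 and 6.13 in A375/211 (slope -0.29, SE 0.07). CLK2 and CLK3 fell by 0.18 and 0.21 per hour. SRPK2 also fell (-0.17, SE 0.05), but only late: it had 96, 96.6, 81 and 45.2 CPM in A375 and 85.9, 103, 108 and 47.8 in A375/211, and with 0 to 3 h alone its slope was 0.00. SRPK1 stayed at 93 to 120 CPM in A375 and 94.6 to 132 in A375/211 (slope 0.00, SE 0.03).

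**Figure D3:**
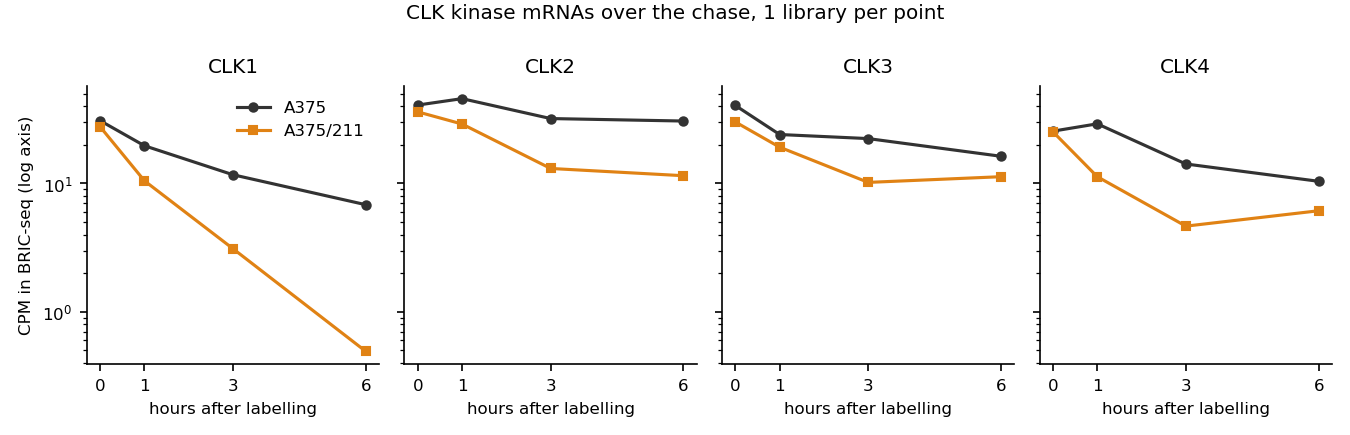
CPM (vertical log axis) of the 4 CLK kinase mRNAs against hours after labelling, black circles for A375 and orange squares for A375/211, with 1 BRIC-seq library per point. A375/211 lies below A375 at every time, and CLK1 reaches 6.83 CPM in A375 and 0.49 CPM in A375/211 at 6 h, the latter from 2 counts.

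SR proteins were divided. SRSF4, a large SR protein with a long arginine-serine tail, fell by 0.43 per hour (SE 0.04, adjusted p = 4.41e-05 by edgeR), with 132, 104, 57.8 and 24.1 CPM in A375 and 112, 96.6, 33.1 and 18.9 in A375/211. Its loss was thus 5.49-fold in A375 and 5.92-fold in A375/211 between 0 and 6 h. SRSF8, a gene that arose as a retrocopy of SRSF2, held 83.9, 100, 86.5 and 21.9 CPM in A375 and 50, 56.7, 44 and 12.5 in A375/211 (slope -0.34, SE 0.07), most of the loss coming after 3 h. SRSF5, which responds to insulin, held 62.1, 67, 48.3 and 19.1 CPM against 51.4, 35.5, 35.9 and 15.9 (slope -0.28, SE 0.05). SRSF10, which acts as a repressor when dephosphorylated by heat shock, declined at each step in both lines. It held 228, 190, 121 and 91.4 CPM in A375 and 173, 152, 109 and 51.9 in A375/211 (slope -0.25, SE 0.03). TRA2B lost most in the first hour, with 182, 80.5, 78.2 and 61.7 CPM in A375 and 169, 51.8, 55.7 and 43.6 in A375/211 (slope -0.24, SE 0.07). SRSF11 passed by a small margin (-0.10, SE 0.04, adjusted p = 0.0467 by edgeR), with 286, 306, 264 and 263 CPM in A375 and 288, 331, 261 and 153 in A375/211.

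The remaining SR proteins did not pass. SRSF7 (-0.11, SE 0.05) and TRA2A (-0.10, SE 0.04) lay below 0. SRSF1 had 166, 98.5, 121 and 176 CPM in A375 and 117, 105, 144 and 222 in A375/211 (slope 0.11, SE 0.04, adjusted p = 0.0564 by edgeR). It dipped at 1 h and was at or above its starting level by 6 h. SRSF9, a smaller relative of SRSF1 with a short arginine-serine tail, had 65.9, 52.8, 52.4 and 77 CPM against 70.4, 55.3, 47.2 and 133 (slope 0.11, SE 0.05). SRSF3 moved between 168 and 275 CPM in A375 and between 138 and 243 in A375/211 (slope -0.04, SE 0.04).

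The profiles of SRSF2 and SRSF6 did not follow a line. SRSF2, a speckle protein that regulates its own mRNA through nonsense-mediated decay, had 41.2, 27.3, 17.1 and 69.7 CPM in A375 but 29.1, 58.7, 80.7 and 18.4 in A375/211. The lines thus moved in opposite directions at each of the 3 steps. SRSF6 had 63, 60.5, 102 and 107 CPM in A375 and 47.9, 131, 154 and 41.9 in A375/211. Their slopes of 0.06 and 0.05 carry errors larger than themselves (SE 0.12 and 0.11), and with 1 library per time the spread of a single time is unknown.

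**Figure D4:**
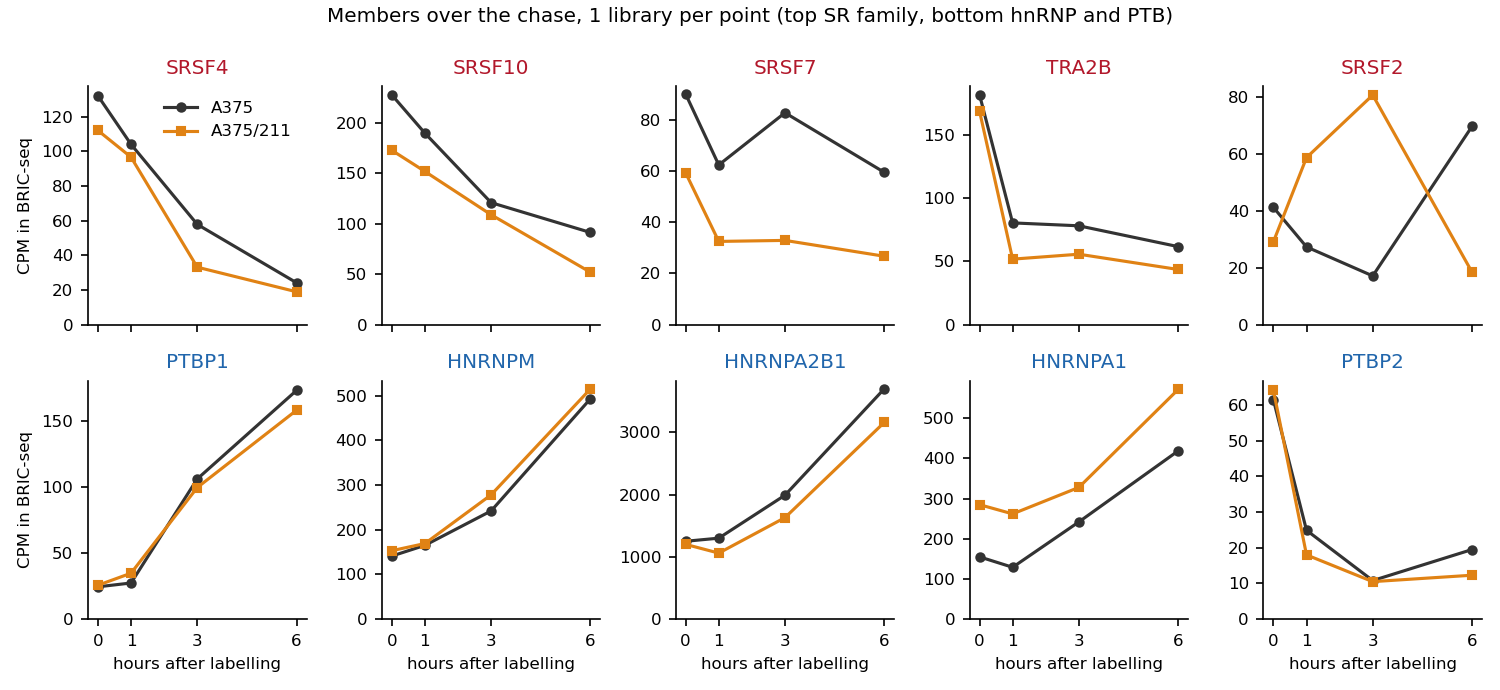
CPM (vertical axes from 0, own scale per gene) against hours after labelling for 5 SR family genes (top) and 5 hnRNP or PTB genes (bottom), black circles for A375 and orange squares for A375/211, with 1 library per point. SRSF4 and SRSF10 decline in both lines, PTBP1 and HNRNPM rise in both, SRSF2 moves in opposite directions (69.7 against 18.4 CPM at 6 h) and HNRNPA1 is higher in A375/211 at all 4 times.

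Most hnRNPs, 15 of 19, rose. PTBP1 rose most of the 38 members, by 0.48 per hour (SE 0.06, adjusted p = 0.000189 by edgeR), with 24.4, 27.3, 106 and 173 CPM in A375 and 25.6, 34.7, 99.5 and 158 in A375/211. That is 7.07-fold and 6.19-fold between 0 and 6 h, and neither line was above the other at all times. HNRNPM, a regulator of alternative splicing in epithelial to mesenchymal change, held 141, 165, 242 and 493 CPM in A375 and 153, 169, 278 and 515 in A375/211 (slope 0.30, SE 0.02). HNRNPK held 186, 183, 284 and 651 CPM against 202, 198, 316 and 522 (slope 0.28, SE 0.03). HNRNPUL1 held 133, 172, 324 and 394 CPM against 126, 195, 282 and 446 (slope 0.28, SE 0.03). HNRNPM was slightly higher in A375/211 at all 4 times (log2 0.10, SE 0.07, not passing), while the order of the lines changed over time in HNRNPK and HNRNPUL1.

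HNRNPA1, HNRNPA2B1 and HNRNPA3, of the A and B type that forms core particles on nascent RNA, rose by 0.22 to 0.27 per hour. HNRNPA2B1 was the most abundant member in BRIC-seq, with 1250, 1300, 1990 and 3700 CPM in A375 and 1200, 1060, 1630 and 3160 in A375/211 (slope 0.26, SE 0.02). HNRNPA3 held 287, 257, 408 and 863 CPM against 230, 234, 376 and 632 (slope 0.27, SE 0.03). HNRNPA1 held 155, 129, 242 and 419 CPM against 285, 262, 328 and 572 (slope 0.22, SE 0.03). All 3 dipped or held at 1 h and had risen 2.01 to 3.01-fold by 6 h. Of the others, HNRNPL (38, 34.9, 45.8 and 89.8 CPM against 36.4, 37.9, 62.2 and 118) had a slope of 0.26, HNRNPH3 (180, 185, 237 and 434 against 168, 156, 212 and 310) one of 0.19 and HNRNPU (506, 559, 729 and 1150 against 508, 498, 752 and 973) one of 0.19. HNRNPC, HNRNPAB, HNRNPH1, HNRNPR and PTBP3 rose by 0.07 to 0.22 per hour.

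The 3 members of the second family that fell came from different subfamilies. PTBP2, which replaces PTBP1 in neurons, lost most in the first hour, with 61.5, 24.9, 10.8 and 19.5 CPM in A375 and 64.2, 18, 10.5 and 12.3 in A375/211 (slope -0.30, SE 0.10). PTBP1 and PTBP2, close paralogs, thus had the highest and the lowest slope of the family. HNRNPF, a G-tract binding protein, had 98.9, 144, 145 and 40.2 CPM in A375 and 96.2, 134, 98.1 and 28.2 in A375/211 (slope -0.28, SE 0.09). Its level was higher at 1 h than at 0 h and lowest at 6 h in both lines, and with 0 to 3 h alone its slope was 0.06. HNRNPA0, an intronless gene of the A type, had 21.5, 23, 23 and 9.64 CPM against 18.5, 18.4, 13.8 and 6.13 (slope -0.23, SE 0.06). HNRNPDL, a relative of HNRNPD, did not pass (slope 0.04, SE 0.05), with 162, 175, 279 and 278 CPM in A375 and 139, 144, 169 and 104 in A375/211.

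By steps, which grow longer over the chase, the hnRNP gain came mostly after the first hour. An even slope would also place most of the change there, so the step sizes below are not rates per hour. The median log2 change of the 19 hnRNP and PTB genes was 0.10 from 0 to 1 h, 0.46 from 1 to 3 h and 0.79 from 3 to 6 h in A375, and 0.02, 0.51 and 0.55 in A375/211. In the 19 SR, CLK and SRPK genes it was -0.27, -0.25 and -0.37 in A375 and -0.21, -0.23 and -0.77 in A375/211. All tested genes changed by a median of -0.04 to 0.04 at each step. At 6 h, 16 of the 19 hnRNP and PTB genes stood above their 0 h level in A375 and 15 in A375/211, against 4 and 3 of the SR, CLK and SRPK genes.

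In each line alone the share of rising hnRNP and PTB genes lay above that of all genes, while the falling SR, CLK and SRPK genes lay above it in A375/211 and near it in A375. In A375, 5 of 19 SR, CLK and SRPK genes fell (SRSF4, SRSF5, SRSF8, SRSF10 and CLK1) and 11 hnRNP and PTB genes rose, where 24.2% of all genes fell and 23% rose. In A375/211, 9 of the first family fell, among them all 4 CLK kinases, and 10 of the second rose while HNRNPA0 fell, where 21% of all genes fell and 21.9% rose. In A375 the 5 falling genes are 26.3% of those tested in their family, close to the share over all genes. The family medians were -0.09 and 0.22 in A375 and -0.17 and 0.17 in A375/211, against -0.04 over all genes in both. SRSF genes alone had a median of -0.03 in A375, near that of all genes, and -0.16 in A375/211. Slopes of the 38 members in the 2 lines had a Pearson correlation of 0.897 and a Spearman correlation of 0.938, with the same sign in 34, against 0.803 and 0.891 over all genes. The members share libraries and depth, so these are descriptions. Without the 6 h library of a line, 0 members passed in that line's slope, as did 0 of all 14100 genes tested in A375 and 0 of all 14134 in A375/211.

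No member's slope differed between the lines by the test across all genes. Of 13703 genes, 0% passed (edgeR, 527 with an unadjusted p under 0.05), and DESeq2 called 18 genes, of which 0 were members. CLK1 came closest, with a slope of -0.35 (SE 0.07) in A375 and -0.97 (SE 0.09) in A375/211, a difference of -0.62 (SE 0.11, unadjusted p = 0.000728, adjusted p = 1 by edgeR). Over its 15 alternatives the adjusted p lay between 0.464 and 1. Its 6 h value in A375/211 rests on 2 counts, against 34 in A375, a 13.9-fold difference with an exact 95% interval of 3.57 to 120. At 3 h, with 85 counts against 18, A375 was 3.78-fold higher (2.25 to 6.68). Both intervals cover counting error only, between 1 library of each line. Without the 6 h library of A375/211 the slope difference was -0.73. SRSF11 (-0.14, SE 0.06), CLK2 (-0.20, SE 0.09) and HNRNPDL (-0.21, SE 0.08) followed, and HNRNPA1 (-0.09, SE 0.07) and HNRNPK (-0.07, SE 0.06) had the next smallest p among hnRNPs. Of the 38 differences, 30 lay below 0, against a median of 0.00 over all genes.

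At matched times, several SR and CLK mRNAs were lower in the labelled RNA of A375/211. With the 4 times standing in for replicates, 5 of 19 SR, CLK and SRPK genes were lower and 0 higher, where 12.3% of all genes were lower and 13.6% higher (edgeR). Of the hnRNP and PTB genes, 1 was higher and 1 lower. The median difference was -0.37 in the first family, -0.09 in the second and -0.05 over all genes. In bulk RNA, fewer cells that hold a transcript and less of it per cell cannot be told apart. Here, too, glycolytic mRNAs held constant shifted all genes, by -0.45, and then 13 and 16 members of the families were lower and 0 higher. Among all 13703 genes, 5622 were then lower and 869 higher.

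SRSF7, which binds GA-rich enhancers and takes part in 3′ end processing, was lower by 1.01 log2 (SE 0.14, adjusted p = 0.00478 by edgeR). It had 90.1, 62.4, 82.8 and 59.5 CPM in A375 and 59.3, 32.5, 32.9 and 26.7 in A375/211, so that the highest A375/211 value lay below the lowest of A375. SRSF8 was lower by 0.84 (SE 0.10, adjusted p = 0.0025), by 1.68, 1.77, 1.97 and 1.75-fold at 0, 1, 3 and 6 h. These SR genes, SRSF7 and SRSF8, and HNRNPA1 passed in each of the 8 fits that left out 1 library. With times matched, leaving out a library also takes its partner at that time out of the line difference. The fits without either library of a time are therefore nearly the same fit and not separate support. In RNA-seq neither SR gene passed: SRSF7 had 137 and 177 CPM in A375 and 135 and 143 in A375/211, and SRSF8 55.5 and 33.7 against 46.3 and 39.4.

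TRA2B (-0.43, SE 0.11, adjusted p = 0.0368 by edgeR), CLK2 (-0.87, SE 0.23, adjusted p = 0.0367) and CLK3 (-0.60, SE 0.17, adjusted p = 0.0485) were lower by smaller margins. CLK2 had 40.9, 45.9, 32.1 and 30.7 CPM in A375 against 36.2, 29.1, 13.1 and 11.5, and CLK3 40.6, 24.1, 22.4 and 16.3 against 30.2, 19.2, 10.2 and 11.3. The gap in CLK2 was 1.13-fold at 0 h and 2.67-fold at 6 h. CLK1 (-1.22, SE 0.45, adjusted p = 0.0926) and CLK4 (-0.92, SE 0.29, adjusted p = 0.0597) had larger differences with larger errors and did not pass, although CLK4 did in the 2 fits without a 0 h library (adjusted p = 0.0218 and 0.0224). All 4 CLK kinases were lower in A375/211 at all 4 times, while their summed RNA-seq level was 108 and 113 CPM in A375 and 117 and 117 in A375/211. TRA2B and CLK2 passed only in the 2 fits without a 0 h library, which are nearly the same fit. CLK3 passed in 0 of the 8, so that 2 to 6 SR, CLK and SRPK genes were lower over the 8 fits.

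HNRNPA1 alone was higher, by 0.69 log2 (SE 0.12, adjusted p = 0.00958 by edgeR), by 1.84, 2.03, 1.35 and 1.37-fold at 0, 1, 3 and 6 h. With glycolytic mRNAs held constant it was 0.25 and did not pass. Its 74 named pseudogenes share its sequence, and their summed level moved with it, at 140, 119, 151 and 293 CPM in A375 and 202, 186, 231 and 406 in A375/211. With those counts added, an alternative chosen after seeing the data, the difference was 0.63 (adjusted p = 0.00417). Reads of HNRNPA1 and its copies cannot be told apart in these counts. HNRNPAB, the CArG-box binding factor, was lower by 0.35 (SE 0.10, adjusted p = 0.047 by edgeR), with 83.9, 104, 143 and 161 CPM in A375 and 79.7, 80.9, 104 and 114 in A375/211. It, too, passed only in the 2 fits without a 0 h library, which are nearly the same fit.

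**Figure D5:**
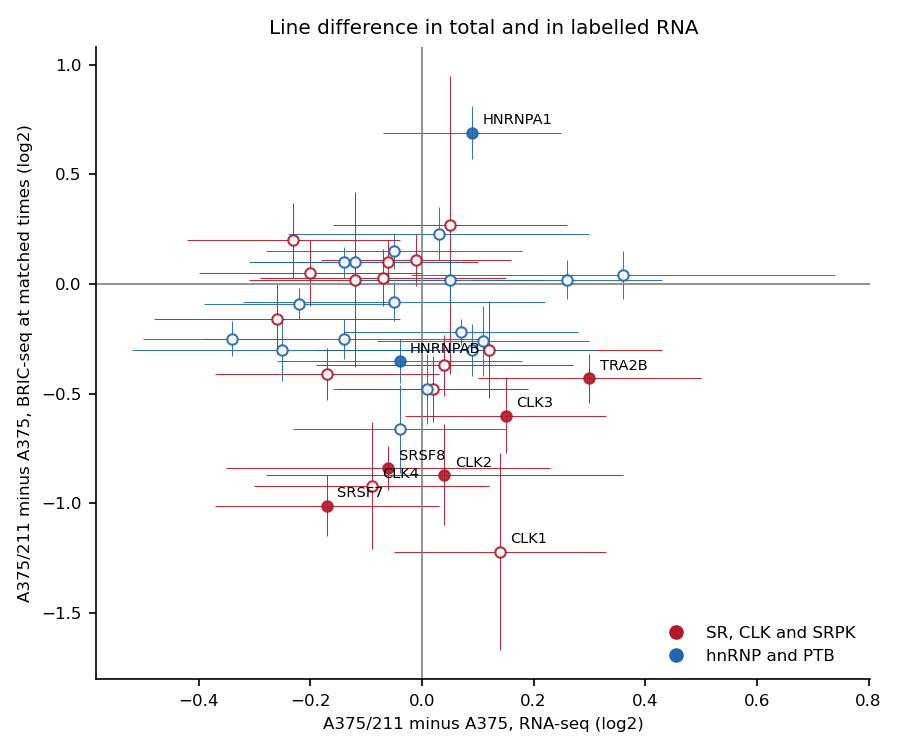
Log2 difference A375/211 minus A375 of 38 members in RNA-seq (horizontal axis) and in BRIC-seq at matched times (vertical axis), red for SR, CLK and SRPK genes and blue for hnRNP and PTB genes, with standard errors as bars. Filled points passed in BRIC-seq: SRSF7 (-1.01), SRSF8 (-0.84), TRA2B, CLK2, CLK3 and HNRNPAB lie below 0 and HNRNPA1 (0.69) above it, while no point passed in RNA-seq.

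RNA-seq and BRIC-seq differences between the lines had the same sign in 18 of 38 members. Of the SR and CLK genes named above, SRSF7 (-0.17, SE 0.20), SRSF8 (-0.06, SE 0.29) and CLK4 (-0.09, SE 0.21) had RNA-seq differences below 0, and CLK1 (0.14, SE 0.19), CLK2 (0.04, SE 0.32), CLK3 (0.15, SE 0.18) and TRA2B (0.30, SE 0.20) above 0, none passing. SRSF12, not tested in the main BRIC-seq fits, was lower in A375/211 in both assays.

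Sequence features of the members were read from GENCODE 44. Proteins of SRSF and TRA2 genes held 9 (SRSF9) to 113 (SRSF4) RS or SR dipeptides, median 46, and hnRNP and PTB proteins 1 to 9. Over the 38 members, the density of these dipeptides and the slope had a Spearman correlation of -0.432. SR proteins are named for such repeats, so the value in part restates the gap in slope between the families. It was not taken within a family. AU-rich ATTTA pentamers in the 3′ UTR, known marks of unstable mRNAs, had a median density of 3.01 per kb in the first family, 2.77 in the second and 2.07 over 10401 genes, and a Spearman correlation with the slope of -0.232 in the members and -0.186 over all genes. At least 1 transcript annotated as a target of nonsense-mediated decay was listed for 19 of 20 SR, CLK and SRPK genes and 14 of 19 hnRNP and PTB genes, against 49.1% of 10697 genes. This contrast was not matched for the number of annotated transcripts, which ran from 1 (HNRNPA0) to 84 (HNRNPA1) in the members.

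Other lists of the splicing machinery are set against all genes, of which 29.9% rose and 34.4% fell in the mean slope. Of 28 other proteins with arginine-serine domains, 27 were tested and 17 fell (63%), 3 rose and 7 did not pass, with a median slope of -0.27. ARGLU1 (-0.42, SE 0.04), PNISR (-0.42, SE 0.04) and RBM39 (-0.29, SE 0.03), which associate with splicing and speckles, had the smallest p. Of 16 other hnRNPs, 15 were tested and 8 rose (53.3%), 1 fell and 6 did not pass (median 0.14), led by MATR3 (0.22, SE 0.03), RBMX (0.20) and PCBP2 (0.21).

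Of 18 tested genes for Sm proteins and snRNP parts, 14 rose (77.8%) and 0 fell (median 0.25), with SNRPD3 at 0.33, and of 14 for U2 and splice-site recognition, 9 rose (64.3%) and 0 fell (median 0.16), with DDX46 at 0.27. Among 25 genes of the tri-snRNP and catalytic step, 10 rose (40%) and 5 fell (20%), with a median of 0.04. These range from the core helicase SNRNP200 (0.40) and the scaffold PRPF8 (0.37) to PRPF38B (-0.53), which carries an arginine-serine rich tail. Exon junction and nonsense-mediated decay genes (4 rising, 2 falling of 14) and 21 tested regulators outside both families (7 rising, 6 falling) had medians of 0.02 and 0.04, with 28.6% and 33.3% rising, near the share over all genes. Falling were 14.3% and 28.6%, the former well below that of all genes. Of 15 tested other kinases, phosphatases and importins of SR proteins, 5 rose (33.3%) and 6 fell (40%), near the shares over all genes (median -0.09). The kinases PRPF4B (-0.32) and CDK12 (-0.31) fell, and the phosphatase subunit PPP1CA (0.42) rose. In RNA-seq 0 genes of these lists passed, the smallest p being those of NOVA2 (log2 3.47, SE 0.88, adjusted p = 0.242 by edgeR) and ESRP1 (log2 -2.03, SE 0.65, adjusted p = 0.358). Both were scarce: NOVA2 had 0 and 0.174 CPM in A375 against 1 and 1.26, and ESRP1 2.8 and 1.36 against 0.736 and 0.259. In BRIC-seq NOVA2 was lower in A375/211 instead, with 8.24, 7.61, 6.76 and 3.21 CPM in A375 against 1.63, 1.39, 1.9 and 1.23. ESRP1 was lower there in both assays.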

How the data were processed

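Counts per gene were used as the authors deposited them, whole numbers without normalization, in 1 table for the 4 RNA-seq libraries and 1 for the 8 BRIC-seq libraries. Per the labels' protocols, BRIC-seq libraries came from BrU-labelled RNA with a stranded total RNA kit. Per the submitters' processing notes, HISAT2 2.1.0 and StringTie were used. The notes name hg19 and the series' design text hg38, so coordinates come from GENCODE 44 (GRCh38) alone. The sources used here give neither the strand setting of the counting nor the treatment of reads with several matches, so members with overlapping genes or pseudogenes are uncertain. Of 60675 gene IDs, 93.2% had a symbol. A BRIC-seq row naming no gene (at most 0.00122% of a library) was left out.

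Counts were tested with edgeR 4.0.16 (R 4.3.3; TMM scaling, genes kept by line at a minimum count of 10 and total of 15) over all genes, with Benjamini-Hochberg adjustment. RNA-seq was fitted by line. BRIC-seq was fitted as 1 slope over hours with the line as covariate, as a slope per line, and as line with times matched. A standard error is the size of the log2 value over the root of its F statistic. CPM uses TMM-scaled totals. The fits were also run on simulated counts with known changes, which checks the code and not how the fits behave on these libraries. Alternatives included other scalings, DESeq2 1.42.0, other filters and each library left out. Separate cultures are not stated in the labels. The p-values therefore cover only the spread among these libraries, possibly a technical one. Precision is limited by 1 BRIC-seq library per line and time.

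Members and lists were chosen with earlier results of these data known. Values in every library are given for members that passed in any result (in the mean slope, the 5 most positive and 5 most negative of each family), for SRSF1, SRSF3, CLK1, CLK4, HNRNPA1 and PTBP1, and for the 3 smallest p of each family per result. Of each other list, up to 3 genes of smallest p were named.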

Additional observations from a re-analysis of the deposited data

How the results depend on the processing

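In RNA-seq 0 members passed under every alternative run, including the replicate block (0 members, with 86 genes higher and 106 lower against 33 and 40 without it). The deviations of libraries a and b correlated between the lines by 0.31 over all genes and 0.574 over the members, and with 2 pairs the letters show only a shared label. BRIC-seq libraries carry no replicate letter and were matched by time in the line difference. In the slope difference, too, 0 members passed under every alternative run.

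The choice of scaling moved the slopes most. With glycolytic mRNAs held constant, the mean slope fell in 19 SR, CLK and SRPK genes and in 18 hnRNP and PTB genes and rose in 0 of the latter. In A375 those counts were 17, 17 and 0, and in A375/211 19, 16 and 0. Among all 13703 genes, 11791 fell and 14 rose in the mean slope, 10382 and 8 in A375, and 10588 and 8 in A375/211. At matched times 13 SR, CLK and SRPK and 16 hnRNP and PTB genes were then lower and 0 hnRNP and PTB genes higher. Among all genes, 5622 were lower and 869 higher. Of results that passed under either scaling, the mean slopes that changed sign were SRSF1 -0.34, SRSF2 -0.39, SRSF6 -0.40, SRSF9 -0.34, SRPK1 -0.45, HNRNPA1 -0.23, HNRNPA2B1 -0.19, HNRNPA3 -0.18, HNRNPAB -0.33, HNRNPC -0.23, HNRNPDL -0.41, HNRNPH1 -0.34, HNRNPH3 -0.26, HNRNPK -0.17, HNRNPL -0.19, HNRNPM -0.15, HNRNPR -0.38, HNRNPU -0.27, HNRNPUL1 -0.18 and PTBP3 -0.31. In A375, among the slopes that had passed, these were HNRNPA1 -0.18, HNRNPA2B1 -0.18, HNRNPA3 -0.16, HNRNPAB -0.30, HNRNPH3 -0.23, HNRNPK -0.13, HNRNPL -0.23, HNRNPM -0.15, HNRNPU -0.25 and HNRNPUL1 -0.19. In A375/211 they were HNRNPA1 -0.27, HNRNPA2B1 -0.20, HNRNPA3 -0.19, HNRNPH3 -0.29, HNRNPK -0.21, HNRNPL -0.15, HNRNPM -0.15, HNRNPU -0.28 and HNRNPUL1 -0.17. Among line differences that passed under either scaling, those that changed sign were SRPK1 -0.35, HNRNPC -0.29, HNRNPK -0.43, HNRNPM -0.34, HNRNPUL1 -0.43 and PTBP1 -0.41. The shift of all genes, -0.45 in each, is built into this scaling.

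With total counts, 7 hnRNP and PTB genes rose in the mean slope, 5 in A375 (2 fell) and 1 in A375/211 (4 fell), while 13 and 14 SR, CLK and SRPK genes fell in the lines, and 4 hnRNP and PTB genes were lower at matched times. SRPK1 (-0.16), HNRNPAB (-0.04), HNRNPH1 (-0.05), HNRNPR (-0.10) and PTBP3 (-0.01) turned in the mean slope, and HNRNPH3 (-0.02) and HNRNPU (-0.01) in A375/211. All genes then split into 1875 rising and 7226 falling, against 4100 and 4715.

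DESeq2, its size factors in edgeR, and no count filter each gave 1 rising SR gene in the mean slope, SRSF1, and the first 2 also 1 in A375/211. Without a count filter, 2 SR, CLK and SRPK genes fell in A375 and 4 in A375/211, and 0 hnRNP and PTB genes fell in A375/211. At matched times 3 and 0 members of the families were then lower, the 3 being SRSF7, SRSF8 and SRSF12. With DESeq2 size factors 0 hnRNP and PTB genes were lower at matched times, and 4 were with a minimum mean of 5 CPM. With 0 to 3 h only, 6 SR, CLK and SRPK genes fell, 1 rose and 1 hnRNP or PTB gene fell, and SRPK2 (0.00) and HNRNPF (0.06) turned. The cause was not tested.

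Leaving out each library in turn gave 7 to 12 falling and 0 to 1 rising SR, CLK and SRPK genes in the mean slope, and 11 to 16 rising and 0 to 3 falling hnRNP and PTB genes. In A375 it gave 0 to 7 falling SR, CLK and SRPK and 0 to 15 rising hnRNP and PTB genes, with the 0 from its own 6 h library left out, where SRSF8 was 0.01, the highest of its slopes (lowest -0.46). In A375/211 it gave 0 to 8 falling and 0 to 1 rising SR, CLK and SRPK genes and 0 to 11 rising and 0 to 2 falling hnRNP and PTB genes, again with 0 falling and 0 rising without its 6 h library, and 4 SR, CLK and SRPK genes fell without its 0 h library. At matched times 2 to 6 SR, CLK and SRPK and 0 to 2 hnRNP and PTB genes were lower, the 2 fits of each time being nearly the same. Of the depth limits, CLK1 at 6 h in A375/211 rests on 2 counts and SRSF12 was not tested in the main BRIC-seq fits.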

Other observations

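RNA-seq and BRIC-seq tables were scaled separately, so levels across them are set side by side without a test. HNRNPA2B1 had 243 to 315 CPM in RNA-seq and 1200 to 1250 at 0 h in BRIC-seq, HNRNPA3 41.3 to 55 and 230 to 287, and HNRNPH3 31.3 to 47.9 and 168 to 180. HNRNPL (229 to 331 and 36.4 to 38), HNRNPK (563 to 644 and 186 to 202) and HNRNPA0 (78.4 to 92 and 18.5 to 21.5) were lower in BRIC-seq instead. Within the SR proteins, SRSF11 stood higher in BRIC-seq (286 and 288 CPM at 0 h, 56.2 to 82.6 in RNA-seq) and SRSF6 lower (63 and 47.9, against 202 to 259).

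The summed level of all 19 hnRNP and PTB genes in BRIC-seq was 4290, 4450, 6350 and 10500 CPM at 0, 1, 3 and 6 h in A375 and 4160, 4190, 5980 and 9090 in A375/211. That of the 4 CLK kinases was 138, 119, 80.4 and 64.3 CPM in A375 and 119, 70.2, 31 and 29.4 in A375/211.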
